A study of Homo sapiens with 6 samples.

Results

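Autophagy, the delivery of cytoplasm to the lysosome inside a double membrane, was followed at the transcript level through 35 genes of its core machinery. The genes were taken by symbol from a table of 19727 genes and fall into 5 steps: 5 genes of the ULK kinase complex, 7 of the class III PI3K complexes, 9 of lipid transfer and its phosphoinositide readers, 7 of the conjugation system and 7 of autophagosome fusion. The LC3 family and the cargo receptors are not among them. All 35 had a row in the table, and in each the values averaged 1 FPKM or more (fragments per kilobase of transcript, scaled to a common library size), so that all 35 entered the test.

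The libraries came from DU145, an established human prostate cancer line that grows without androgen. Of 6 poly(A)-selected, paired-end libraries, 3 came from cells carrying the control vector lentivirus-NC (genotype "normal" in the labels, here NC) and 3 from cells carrying lentivirus-circCSPP1, which overexpresses a circular RNA of the CSPP1 gene (here OE). Lentiviral cells of both groups had been selected with puromycin into stable lines, 1 vector per group, so that the effect of the insert and that of making a separate line cannot be told apart. Whether the 3 libraries of a group were separate cultures is not given in the sources used here, and the p-values then measure only the spread between these libraries, which may be technical.

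In outline, the ULK complex receives nutrient signals, and the class III PI3K complex then marks the membrane where an autophagosome forms with phosphatidylinositol 3-phosphate. WIPI-family proteins read that lipid, ATG9A and ATG2 proteins supply and spread the membrane, the ATG12-ATG5-ATG16L1 enzyme attaches LC3-type proteins to it, and SNARE proteins fuse the closed vesicle with the lysosome. Many of these proteins are regulated by phosphorylation and by assembly, which transcript levels do not show, and DU145 is known for making little or no functional ATG5 protein because its ATG5 transcripts are misspliced, which a value per gene does not show either.

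The libraries held 28800000 to 36350000 fragments in NC and 28850000 to 34650000 in OE, as read from the step between low FPKM values. At that depth the members were covered by roughly 463 fragments (ATG10, in its lowest library) to 20143 fragments (RAB7A, in its highest). CSPP1 itself stood at 9.54 ± 0.493 FPKM (SD, n = 3) in NC and 19.5 ± 4.44 FPKM in OE, a rise of 0.94 on the log2 scale with a limma adjusted p of 0.016, although a value per gene does not separate the circular RNA, the linear transcript and the vector insert. Over 17 alternative settings the limma adjusted p of CSPP1 ran from 0.00040 to 0.077, and it was called in 11 of them. Epithelial markers were present in all 6 libraries, and 5 of 5 fell in OE, among them KRT8 from 1112 to 416 FPKM and CDH1 from 10.9 to 3.01 FPKM. Of the markers of fibroblasts, leukocytes and endothelium, 2 of 10 passed a mean of 1 FPKM: COL1A1, which fell from 3.26 to 1.15 FPKM, and CD14 (2.37 and 1.43 FPKM), while the defining genes PTPRC, CD3E, PECAM1 and VWF were near 0 in both groups.

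OE replicate 1 stood apart from its group. Across genes its log2 values correlated with OE replicates 2 and 3 at r = 0.970 and 0.979, against 0.990 between those and 0.991 to 0.992 among the NC libraries. The departure of a library from the mean of the others of its group followed the GC content of the transcript in OE replicate 1, with a Spearman correlation of 0.81 over 7663 genes and of 0.85 over the 35 members. These correlations are descriptions over genes of the same libraries, and the 3 departures of a group are not independent of each other. In the 9 members with a GC content of 55% or more, OE replicate 1 was the highest OE library in 9 of 9. In the 12 members under 45% it was the lowest in 12 of 12, and in the 14 members between these values it was highest in 4 and lowest in 6. The median departure was 0.38, -0.42 and -0.08 in those 3 classes in turn, on the log2(FPKM + 1) scale. Every call that follows is therefore given with and without that library, and its part in each difference was otherwise not tested.

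**Figure D1:**
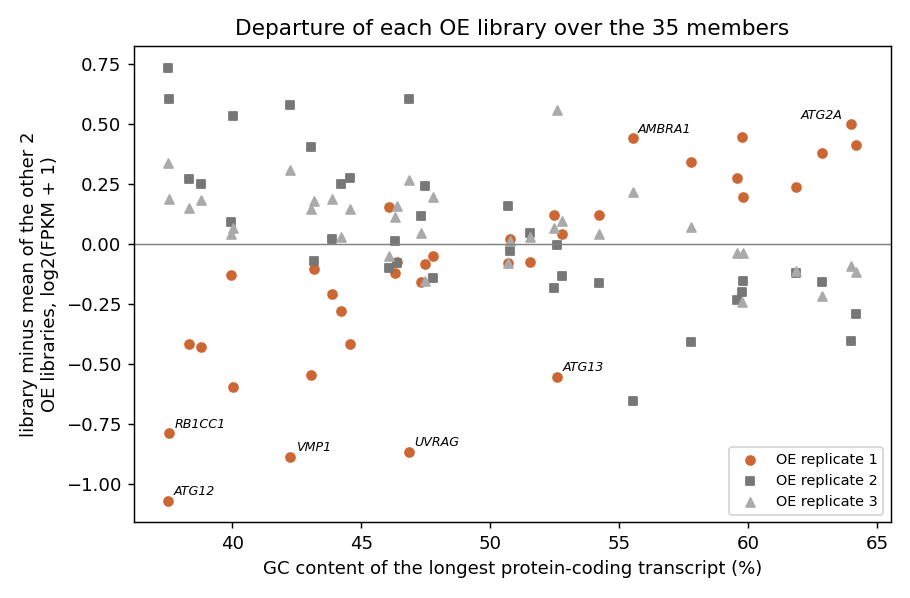
Departure of each OE library from the mean of the other OE libraries (vertical axis, log2(FPKM + 1)) against the GC content of the longest protein-coding transcript (horizontal axis, percent) for the 35 members, 1 point per member and library. The points of OE replicate 1 climb from the lower left, where RB1CC1 and ATG12 lie, to the upper right at ATG2A, with a Spearman correlation of 0.85, while those of OE replicates 2 and 3 go the other way.

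OE was compared with NC by limma on log2(FPKM + 1), over the 12322 genes that averaged 1 FPKM or more, and p-values were adjusted over all of them by the Benjamini-Hochberg method. Since 1 is added before the logarithm, low genes changed by more than their fold change on this scale shows. Of the 35 members, 4 passed an adjusted p of 0.05: ATG101 and WDR45 rose, and ATG16L2 and VAMP8 fell. That is 11.4% of the members, and 11.4% of all genes tested passed as well (4.69% higher and 6.66% lower in OE). The libraries of the groups did not overlap in 13 members, or 37.1%, against 36.4% of all genes tested. Of these, 6 were higher and 7 lower in OE, beside 16% and 20.5% of all genes. The median log2 fold change was 0.05 over the members and -0.03 over all genes tested, and 22 of the 35 members (62.9%) moved by less than 0.2 either way, against 52.2% of all genes tested. The 4 that passed belong to 4 different steps: the ULK complex had 1 of 5 called, lipid transfer 1 of 9, conjugation 1 of 7, fusion 1 of 7 and the PI3K complex 0 of 7 (limma, with 1 of the 7 at an unadjusted p under 0.05).

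**Figure D2:**
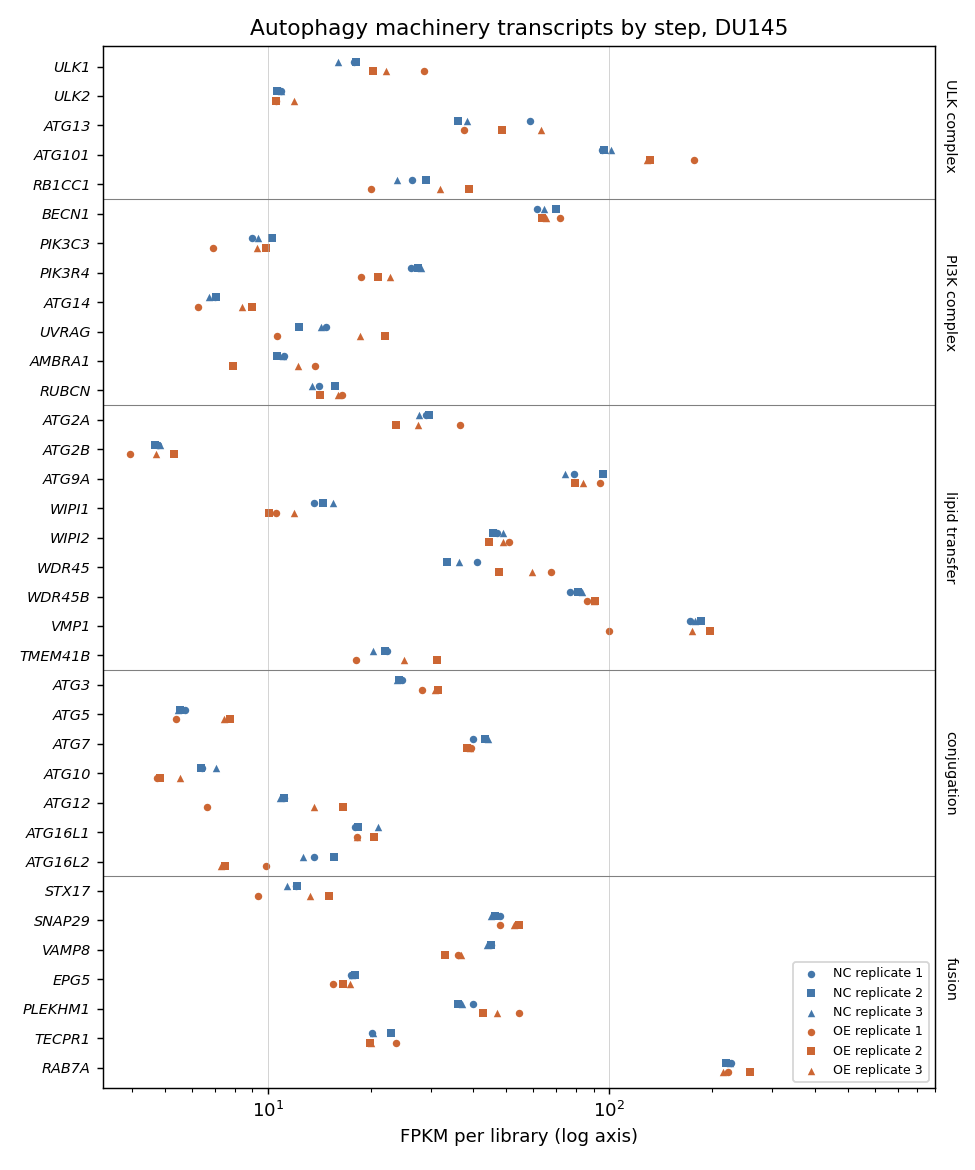
FPKM of the 35 members in each library (horizontal log axis), grouped by step, with blue points for the 3 NC libraries and orange points for the 3 OE libraries. Levels run from 3.94 FPKM (ATG2B, OE replicate 1) to 259 FPKM (RAB7A, OE replicate 2), and the orange points are more spread than the blue in most members.

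The ULK complex receives the signal that starts autophagy. Its members rank, in mean NC level, from ULK2 at 10.8 FPKM to ATG101 at 97.6 FPKM. ATG101, which binds ATG13 and stabilises the complex, was at 95.0, 96.6 and 101 FPKM in NC replicates 1, 2 and 3, and at 178, 132 and 129 FPKM in OE replicates 1, 2 and 3. All 3 OE libraries were above all 3 NC libraries, and OE replicate 1 was the highest. Its mean rose from 97.6 ± 3.10 to 146 ± 27.3 FPKM (SD, n = 3 each), with a log2 fold change of 0.56 (SE 0.13, limma adjusted p = 0.033). Without OE replicate 1 the log2 fold change was 0.41 (limma adjusted p = 0.0042), and over 17 alternative settings the adjusted p ran from 0.0034 to 0.13. The gene lies at chr12:52069246-52077494 on the plus strand (GRCh38, GENCODE 29).

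ULK1, the kinase that phosphorylates most known substrates of the complex, was at 17.8, 18.1 and 16.1 FPKM in NC and at 28.6, 20.4 and 22.2 FPKM in OE. The OE libraries again lay above the NC libraries, with OE replicate 1 far above the others, and the log2 fold change of 0.42 (95% interval 0.09 to 0.74) did not pass (limma adjusted p = 0.097). Without OE replicate 1, ULK1 was at 0.28 (limma adjusted p = 0.0504, range 0.0046 to 0.27 over the alternatives). Its paralogue ULK2 was at 10.9, 10.6 and 10.9 FPKM in NC and 10.6, 10.6 and 11.9 FPKM in OE. Those groups overlapped, with a log2 fold change of 0.02 (95% interval -0.21 to 0.25, limma adjusted p = 0.92). The other 2 members, the scaffold RB1CC1 (FIP200) and ATG13, which links kinase and scaffold, overlapped between the groups, with log2 fold changes of 0.14 and 0.17. In ATG13 the spread lay in both groups, since NC replicate 1 was at 58.6 FPKM against 36.0 and 38.4 FPKM in the other NC libraries. RB1CC1 was at 19.99 FPKM in OE replicate 1 and at 39.0 and 31.9 FPKM in OE replicates 2 and 3, and without OE replicate 1 its log2 fold change was 0.41 (limma adjusted p = 0.045, range 0.045 to 0.91 over the alternatives).

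The class III PI3K complexes make the lipid mark of the forming autophagosome. None of their 7 genes passed, and their median log2 fold change was 0.04. BECN1 (Beclin 1), the subunit around which the complexes are built, was at 61.2, 69.7 and 64.3 FPKM in NC and 71.8, 63.7 and 65.2 FPKM in OE. The groups overlapped, and the difference of 0.04 had a 95% interval from -0.17 to 0.25 (limma adjusted p = 0.83). PIK3R4 (VPS15), the regulatory subunit that holds the catalytic one, came nearest to the threshold, with 26.3, 27.6 and 28.1 FPKM in NC against 18.8, 21.0 and 22.7 FPKM in OE. Each OE library was below each NC library, and the log2 fold change of -0.38 (SE 0.10) had a limma adjusted p of 0.054. Without OE replicate 1 it was -0.31 and passed, with a limma adjusted p of 0.022, while over all alternatives that p ran from 0.013 to 0.19.

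The catalytic subunit PIK3C3 (VPS34) had a log2 fold change of -0.14 and overlapped between the groups. The subunits that direct the complex to one membrane or another also overlapped: ATG14, of the autophagosome-forming complex, had a log2 fold change of 0.15, and UVRAG, of the endosomal complex, one of 0.23. AMBRA1, which binds Beclin 1 and also serves a ubiquitin ligase, had a log2 fold change of 0.01, and RUBCN, an inhibitor of the UVRAG complex, one of 0.10. UVRAG showed how far OE replicate 1 could lie from its group, at 10.7 FPKM against 22.0 and 18.7 FPKM in OE replicates 2 and 3 and 12.4 to 14.8 FPKM in NC. Leaving that library out gave UVRAG a log2 fold change of 0.52 (limma adjusted p = 0.018, range 0.018 to 0.93) and ATG14 one of 0.29 (limma adjusted p = 0.039, range 0.039 to 0.82).

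Lipid transfer and its readers hold 1 called gene, WDR45. WDR45 (WIPI4) is a propeller protein that binds phosphatidylinositol 3-phosphate and ATG2. It was at 41.0, 33.5 and 36.4 FPKM in NC replicates 1, 2 and 3, and at 67.6, 47.5 and 59.5 FPKM in OE. Every OE library exceeded every NC library, although OE replicate 2 and NC replicate 1 were only a few FPKM apart. The mean rose from 37.0 ± 3.80 to 58.2 ± 10.1 FPKM (SD, n = 3 each), by 57.4%, with a log2 fold change of 0.63 (SE 0.14, limma adjusted p = 0.033), the largest rise among the members. Without OE replicate 1 it was 0.52 (limma adjusted p = 0.027), and the adjusted p ran from 0.0067 to 0.13 over the alternatives. WDR45 lies at chrX:49071470-49101170 on the minus strand (GRCh38, GENCODE 29).

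Of the other readers, WDR45B (WIPI3) was at 76.5, 81.2 and 83.0 FPKM in NC and 86.0, 91.0 and 90.3 FPKM in OE. The groups did not overlap, but the log2 fold change of 0.15 did not pass (limma adjusted p = 0.25). WIPI1 was at 13.7, 14.5 and 15.5 FPKM in NC and 10.5, 10.1 and 11.9 FPKM in OE. Here the OE libraries were the lower ones, and the log2 fold change was -0.39 (SE 0.11, limma adjusted p = 0.059), or -0.38 without OE replicate 1 (limma adjusted p = 0.035, range 0.019 to 0.21 over the alternatives). WIPI2, the reader that recruits ATG16L1, was at 46.9, 45.5 and 48.7 FPKM in NC and 50.9, 44.5 and 49.0 FPKM in OE, with overlapping groups and a log2 fold change of 0.03 (limma adjusted p = 0.86).

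The lipid-moving proteins themselves did not pass. ATG2A, a bridge along which lipids travel from the endoplasmic reticulum, was at 29.2, 29.7 and 27.7 FPKM in NC and 36.5, 23.7 and 27.6 FPKM in OE. ATG2B, its paralogue, was at 4.77, 4.68 and 4.84 FPKM in NC and 3.94, 5.31 and 4.70 FPKM in OE. In OE replicate 1, ATG2A was the highest of the 6 libraries and ATG2B the lowest, so that the OE libraries bracketed the NC libraries in both genes, with log2 fold changes of -0.00043 and -0.04. The scramblases ATG9A, VMP1 and TMEM41B, which move lipids between the leaflets of a membrane, overlapped between the groups with log2 fold changes of 0.05, -0.24 and 0.16. VMP1 was at 172 to 186 FPKM in NC and at 198 and 174 FPKM in OE replicates 2 and 3 but at 99.98 FPKM in OE replicate 1. Without that library the VMP1 difference was 0.055 (limma adjusted p = 0.58).

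In the conjugation step, ATG7 activates ATG12 and the LC3-type proteins, ATG10 and ATG3 pass them on, and ATG12, ATG5 and ATG16L1 together form the enzyme that completes the transfer. The called gene of this step was ATG16L2, a paralogue of ATG16L1 that also binds the ATG12-ATG5 pair but is not held to replace ATG16L1 in starvation-induced autophagy. It was at 13.7, 15.6 and 12.7 FPKM in NC and at 9.91, 7.51 and 7.29 FPKM in OE. All 3 OE libraries were below the lowest NC library. Its mean of 14.0 ± 1.47 in NC fell to 8.24 ± 1.45 FPKM in OE (SD, n = 3 each), with a log2 fold change of -0.70 (SE 0.14, limma adjusted p = 0.023), the largest in absolute size among the 35. Without OE replicate 1 it was -0.83 (limma adjusted p = 0.0038), and the adjusted p ran from 0.0020 to 0.11 over the alternatives. ATG16L2 lies at chr11:72814308-72843674 on the plus strand (GRCh38, GENCODE 29).

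ATG16L1 overlapped between the groups, at 17.9, 18.3 and 21.0 FPKM in NC and 18.2, 20.5 and 18.3 FPKM in OE, a log2 fold change of -0.0059 with a 95% interval from -0.25 to 0.24. ATG5 was at 5.72, 5.54 and 5.47 FPKM in NC and at 5.38, 7.73 and 7.46 FPKM in OE. OE replicates 2 and 3 were above all NC libraries and OE replicate 1 below them. The log2 fold change of ATG5 was 0.24 over all libraries (limma adjusted p = 0.31) and 0.39 without OE replicate 1 (limma adjusted p = 0.017, range 0.017 to 0.57 over the alternatives). ATG12 had the same order of libraries, at 10.8 to 11.2 FPKM in NC and 6.65, 16.6 and 13.7 FPKM in OE. Its log2 fold change was 0.06 with all libraries and 0.42 without OE replicate 1 (limma adjusted p = 0.025, range 0.025 to 1).

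ATG7 was at 39.9, 43.4 and 44.2 FPKM in NC and 39.4, 38.4 and 39.2 FPKM in OE. The OE libraries were all below the NC libraries, by little, and the log2 fold change of -0.12 did not pass (95% interval -0.31 to 0.08, limma adjusted p = 0.39). The transfer enzymes differed in sign: ATG3 averaged 24.3 ± 0.382 FPKM in NC and 30.2 ± 1.66 FPKM in OE, with a log2 fold change of 0.30 (limma adjusted p = 0.067), and ATG10 6.62 ± 0.387 and 5.03 ± 0.444 FPKM, with one of -0.34 (limma adjusted p = 0.091). In both, the groups did not overlap. Without OE replicate 1, ATG3 was at 0.35 (limma adjusted p = 0.010, range 0.010 to 0.22 over the alternatives) and ATG10 at -0.30 (limma adjusted p = 0.059).

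For fusion, STX17 sits on the closed autophagosome, SNAP29 bridges and VAMP8 sits on the lysosome. VAMP8 was at 45.05, 45.18 and 43.85 FPKM in NC and at 36.0, 33.1 and 36.9 FPKM in OE. The libraries were tight in both groups and did not overlap. The mean fell from 44.7 ± 0.733 to 35.3 ± 1.96 FPKM (SD, n = 3 each), with a log2 fold change of -0.33 (SE 0.08, limma adjusted p = 0.046), the member closest to the threshold among those that passed. Without OE replicate 1 it was -0.35 (limma adjusted p = 0.015), and the adjusted p ran from 0.0052 to 0.18 over the alternatives. VAMP8 lies at chr2:85561562-85582031 on the plus strand (GRCh38, GENCODE 29).

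The SNAREs that pair with VAMP8 did not pass: the log2 fold changes were 0.05 for STX17 (9.35 to 15.1 FPKM in OE, 11.4 to 12.1 FPKM in NC) and 0.15 for SNAP29. Leaving out OE replicate 1 gave SNAP29 a log2 fold change of 0.20 (limma adjusted p = 0.048, range 0.048 to 0.58). PLEKHM1, an adaptor that brings RAB7A, LC3 and the HOPS tether together, was at 40.0, 36.1 and 37.1 FPKM in NC and 54.4, 42.8 and 46.9 FPKM in OE. Its groups did not overlap, and the log2 fold change of 0.33 (SE 0.11) did not pass (limma adjusted p = 0.094). Without OE replicate 1, PLEKHM1 was at 0.24 (limma adjusted p = 0.054, range 0.0082 to 0.28 over the alternatives). The tether EPG5 had a log2 fold change of -0.10, with OE libraries just below the NC libraries, and TECPR1, which binds the ATG12-ATG5 pair, one of 0.0024. The GTPase RAB7A, the most abundant member, was at 227, 220 and 226 FPKM in NC and 223, 259 and 215 FPKM in OE, a log2 fold change of 0.05 with a 95% interval from -0.16 to 0.25.

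**Figure D3:**
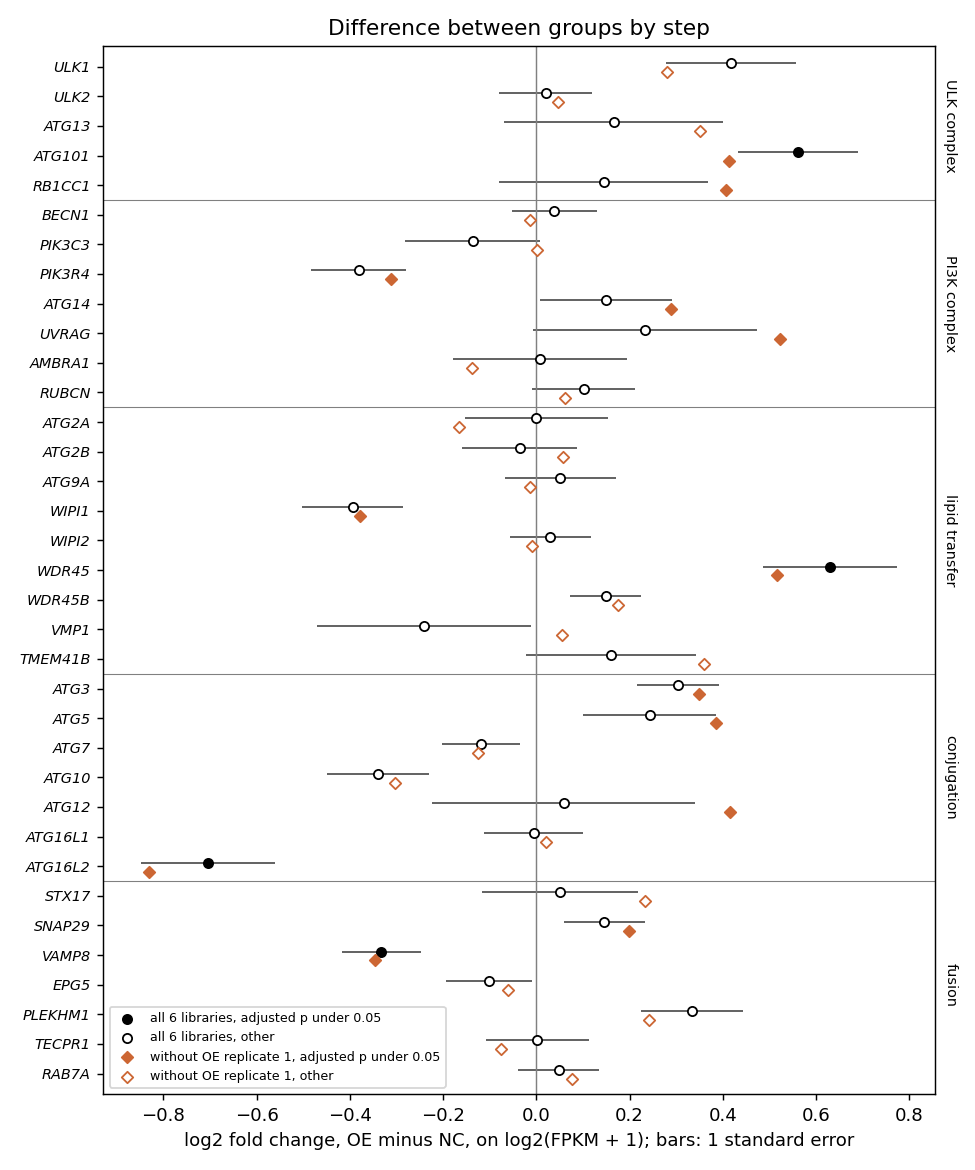
Log2 fold change of each member, OE against NC, on the log2(FPKM + 1) scale: circles are the values over all 6 libraries with bars of 1 standard error from limma, diamonds the values without OE replicate 1, and filled symbols those with an adjusted p under 0.05. The filled circles are ATG101 and WDR45 to the right of 0, at 0.56 and 0.63, and ATG16L2 and VAMP8 to the left, at -0.70 and -0.33, and 13 diamonds are filled.

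The difference between groups was read against an uneven spread. The SD of the log2 values was larger in OE than in NC in 28 of 35 members, or 80%, and in 78.1% of all genes tested. Its median over the members was 0.06 in NC and 0.17 in OE, and 0.10 in OE without replicate 1. OE replicate 1 was the OE library farthest from the OE median in 23 of the 35. With that library left out, 13 members passed (9 higher and 4 lower), but 28.5% of all genes tested passed too. A loess correction of each library for GC content and length, which kept all 6, called 10 members (6 higher and 4 lower) beside 28.6% of all genes. The called sets of those alternatives shared 8 members, 61.5% of the first and 80% of the second: ATG101, WDR45, ATG3, ATG5, PIK3R4, WIPI1, ATG16L2 and VAMP8. RB1CC1, ATG14, UVRAG, ATG12 and SNAP29 passed only in the first. After the loess correction their limma adjusted p was 0.12, 0.14, 0.41, 0.47 and 0.075 in turn. ULK1 and PLEKHM1 passed only in the second, at a limma adjusted p of 0.0046 and 0.0082. When an NC library or OE replicate 3 was left out, 0 members passed by limma (2.43% to 3.65% of all genes), and with all libraries kept 10 of the 35 members, and 28.2% of all genes tested, had an unadjusted p under 0.05.

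Within the machinery, 5 pairs of paralogues could be set against each other library by library, as the log2 ratio of their FPKM values (each + 1), with an exact permutation test over libraries that cannot give a two-sided p below 0.1 with 3 against 3. Plain ratios given here are of FPKM without the 1 added, while differences and tests are of the log2 ratios with it. ATG16L1 exceeded ATG16L2 by a plain ratio of 1.31, 1.18 and 1.66 in NC and of 1.84, 2.73 and 2.50 in OE. The log2 ratio was 0.70 higher in OE, with groups that did not overlap (exact permutation p = 0.1, adjusted over the 5 pairs 0.17). The ratio of ULK1 to ULK2 was also higher in each OE library than in any NC library, by 0.40 on the log2 scale, and that of WIPI1 to WIPI2 lower in each, by a difference of -0.42 (exact permutation p = 0.1 and adjusted 0.17 for both). For WDR45 to WDR45B the difference was 0.48 and the groups overlapped (exact permutation p = 0.2, adjusted 0.25). ATG2A to ATG2B differed by 0.04, with plain ratios of 5.73 to 6.34 in NC and 4.47 to 9.28 in OE (exact permutation p = 0.9). Without OE replicate 1 the difference was 0.85 for ATG16L1 to ATG16L2, 0.24 for ULK1 to ULK2 and -0.37 for WIPI1 to WIPI2. It was 0.34 for WDR45 to WDR45B and -0.22 for ATG2A to ATG2B.

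**Figure D4:**
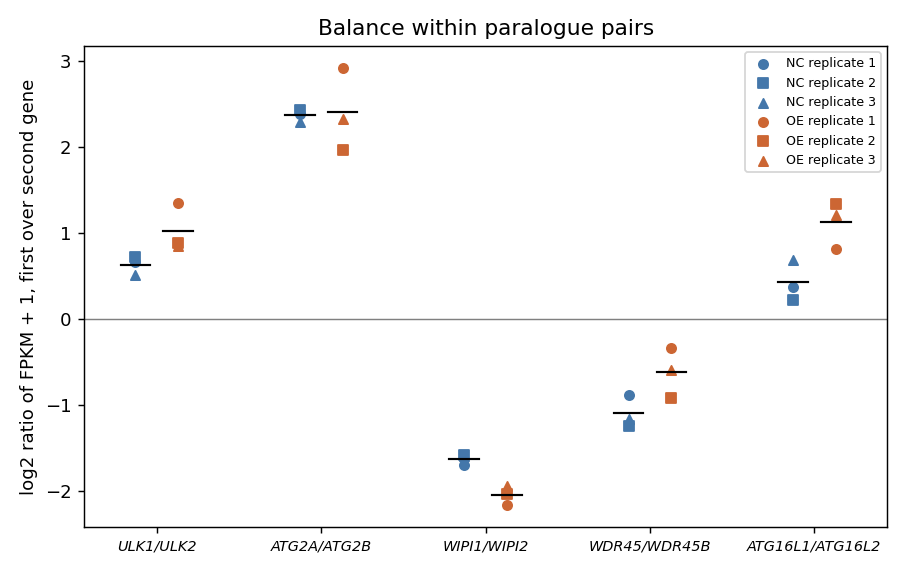
Log2 ratio of the FPKM values (each + 1) of 5 paralogue pairs in each library, with blue points for NC, orange points for OE and a line at each group mean. The pairs ULK1/ULK2, WIPI1/WIPI2 and ATG16L1/ATG16L2 have groups that do not overlap, and OE replicate 1 gives ATG2A/ATG2B its highest value, 2.93.

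Genes next to the machinery were counted from 3 lists written from general knowledge. Beside these lists, 11.4% of all genes tested passed with all 6 libraries and 28.5% without OE replicate 1. In the LC3 and GABARAP families with the ATG4 proteases, 10 of 11 genes entered the test, 1 rose and 1 fell. GABARAPL1, a substrate of the conjugation system, rose from 9.80 to 17.2 FPKM (log2 fold change 0.77, limma adjusted p = 0.023), and ATG4A, a protease that trims these substrates, fell from 3.94 to 2.23 FPKM (-0.62, limma adjusted p = 0.023). MAP1LC3B, the gene of the LC3 protein most used as an autophagosome marker, was at 44.0, 41.4 and 42.3 FPKM in NC and 41.2, 66.9 and 51.1 FPKM in OE. Its groups overlapped (log2 fold change 0.28, limma adjusted p = 0.30), and without OE replicate 1 it was at 0.45 (limma adjusted p = 0.032, range 0.032 to 0.58). Of the HOPS tether and endolysosomal SNAREs, 0 of 11 passed by limma. Of 15 upstream kinases and transcription factors, which include MTOR, the AMPK subunits and TFEB, 1 passed: TFE3, a relative of TFEB that drives lysosomal genes, rose from 38.7 to 53.1 FPKM (0.44, limma adjusted p = 0.028). With OE replicate 1 left out, the log2 fold change was 0.79 for GABARAPL1 (limma adjusted p = 0.020, range 0.010 to 0.10 over the alternatives), -0.56 for ATG4A (limma adjusted p = 0.019, range 0.0083 to 0.11) and 0.37 for TFE3 (limma adjusted p = 0.0096, range 0.0025 to 0.13).

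One question of the study was whether circCSPP1 acts through miR-520h, a microRNA named in its title, on the 3′ UTRs of autophagy-related genes. The study's own search ended at a gene outside the 35 members. Its evidence on autophagy also came from protein blots and microscopy, which are not examined here. The mature sequence (RefSeq, GRCh38.p14, chr19:53742566-53742587) is shown because its seed, bases 2 to 8 in capitals, sets which letters were searched for:
hsa-miR-520h: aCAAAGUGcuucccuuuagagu
A match of 7 or 8 bases was the complement of bases 2 to 8 (CACTTTG), the complement of bases 2 to 7 followed by an A (ACTTTGA), or both together, on the transcript strand in the longest 3′ UTR of the gene in GENCODE 29. Such a match was found in 15 of the 35 members (42.9%) and in 32.9% of the 12213 tested genes with a 3′ UTR. The member UTRs with a match were also longer, with a median of 2766 against 1130 bases for those without.

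The 20 sites in these 15 genes were 2 of 8 bases, 10 to bases 2 to 8 and 8 to bases 2 to 7 with the A. Of the 20, 6 lay in a run of letters that recurs between genes, and 4 of the 15 genes matched only there, which leaves 11 with a match elsewhere. How many of all genes match only in that run was not computed. Stretches of 30 bases around some of the other sites follow (GRCh38, GENCODE 29, transcript strand, the match in capitals), chosen to show both sites of 8 bases and the sites in ATG3 and ATG5, members named by their place in the conjugation step:
PLEKHM1, chr17:45437043-45437072: agcactgtcagCACTTTGAgccctcctcgg
ATG2B, chr14:96280517-96280546: tatataacatcCACTTTGAacaattaggga
ATG3, chr3:112533471-112533500: tccctaagaagaACTTTGAactgatttgat
ATG5, chr6:106185963-106185992: tgcaatcttgtaACTTTGAtaatgaacagt

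No member called with all 6 libraries, before any correction for GC content, had a match. In that fit 0 of the 15 with a match passed by limma, beside 9.27% of the 4014 tested genes with a match. The median log2 fold change of the 15 was 0.06. Of the 20 without one, 2 rose and 2 fell, beside 12.3% called of the 8199 tested genes without one, with a median of 0.04. Over all genes tested the medians were -0.03 with and -0.03 without a match. Without OE replicate 1, 13 members passed by limma, and of those ATG3, ATG5, ATG12 and SNAP29 had a match and rose. In ATG12 and SNAP29 the match lay only in the recurring run. After the loess correction 10 passed, of which ATG3, ATG5 and PLEKHM1 had a match and rose. In those settings 28.5% and 28.6% of all genes tested passed. The genes with sites of 8 bases, PLEKHM1 and ATG2B, had the log2 fold changes of 0.33 and -0.04 given before. Neither passed with all 6 libraries before the correction. A match is a description of letters and not a binding site, and no binding was measured in these libraries.

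Promoters of 30 of the 35 members were found in a RefSeq table (GRCh38.p14, 250 bases before to 50 after the start) and were searched on both strands for 5 motifs, of which 4 are described. CACGTG, the E-box read by TFEB and TFE3 among others, was in 3 members, ATG3, ATG14 and SNAP29, and in 12.8% of the 9725 tested genes with a promoter there. The CLEAR consensus, a longer motif of lysosomal genes that contains the E-box, was in 0 members and 0.936% of those genes. TGATGNAA, a response element of C/EBP and ATF factors, was in 1 member, WDR45, and 2.64% of those genes, and TGACGTCA, the cyclic AMP response element, in 0 members and 3.84%. The WDR45 stretch is shown because that gene had the largest rise, and the ATG3 stretches because that promoter held the E-box in a pair (motif in capitals, transcript strand):
WDR45, chrX:49079876-49079903: aagtagggccTGATGTAAacacccgagc
ATG3, chr3:112561965-112561990: tttctcacgtCACGTGccgggagagt
ATG3, chr3:112561942-112561967: agtctagtgtCACGTGaggccccggt
None of the genes with the E-box was called by the main fit of all 6 libraries. With OE replicate 1 left out, ATG3, ATG14 and SNAP29 were each past the threshold by limma, as given for each before, beside 28.5% of all genes tested. After the loess correction ATG3 passed (limma adjusted p = 0.045), while ATG14 (limma adjusted p = 0.14) and SNAP29 (limma adjusted p = 0.075) did not. In that setting 28.6% of all genes tested passed.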

How the data were processed

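RNA of 3 lentivirus-NC and 3 lentivirus-circCSPP1 libraries of DU145 was measured. The authors deposited 1 table of FPKM values, rounded to 2 decimals, with 1 row per gene and 1 column per library. The submitters' processing notes name hg38, and the aligner, the FPKM program and the annotation are not given in the sources used here. FPKM are not counts and no count model was fitted. FPKM share 1 total per library, so that a gene's value depends on the share that the rest of a library takes up: the 20 highest genes held 14.9% to 15.2% of the summed FPKM in NC and 12.0% to 12.1% in OE. Samples were grouped by their labels, and columns by group and replicate number in their names.

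Values were taken to log2(FPKM + 1), and the 12322 genes that averaged 1 FPKM or more were tested, while 7405 were not. The test was that of limma 3.58.1, run in R 4.3.3 (lmFit, eBayes with trend, two-sided, no covariate), with Benjamini-Hochberg adjustment over all genes tested, and a gene was called at an adjusted p under 0.05. The fit was tested on simulated data with the same SD in both groups, which does not speak to the uneven spread seen here. Depth was read from low values of genes with short transcripts as the step at which FPKM multiplied by length fell on whole multiples (93.2% to 98.8% of the values used, within 0.15 of a step). Lengths, GC content and 3′ UTRs came from GENCODE 29 by Ensembl identifier, and promoters and the microRNA from RefSeq tables, which may not match the authors' annotation.

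The 35 members and all lists were chosen with earlier results of these data known. Every library's value was given for members with an adjusted p under 0.05, for the member with the smallest p and that with the largest fold change in each step, for the paralogue pairs and for ATG5, ATG7, BECN1 and ULK1, and further values where OE replicate 1 stood apart were chosen after they were seen. The alternatives were no filter or a minimum mean of 5 FPKM, pseudocounts of 0.1 and 0.01, TPM, median-ratio and quantile scaling, no moderation, robust eBayes, a replicate block, a loess correction for GC content and length, and each library left out in turn. Some marker genes and sites are not reported here. Figures were drawn with matplotlib 3.10.9.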

Additional observations from a re-analysis of the deposited data

How the results depend on the processing

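Against the 4 members called, pseudocounts of 0.1 and 0.01, robust eBayes and a mean of at least 5 FPKM (34 members tested) called 4, TPM 3, median-ratio scaling 4 (ATG3 in, VAMP8 out) and quantile normalization 5 (PIK3R4 added). With no filter, and likewise with no moderation of the variance, 2 were called (ATG3 and VAMP8), and after the loess correction for GC content and length 10 were. Leaving out 1 library gave 0 to 13 members: 0 without NC replicate 1, NC replicate 2, NC replicate 3 or OE replicate 3, 2 without OE replicate 2 (ATG101 and WDR45) and 13 without OE replicate 1. Of the 17 alternatives, ATG101 and WDR45 were called in 11 each, ATG16L2 in 10 and VAMP8 in 9. Among the neighbouring lists, 3 genes were called (GABARAPL1, ATG4A and TFE3), 1 with no filter, 0 with no moderation, 6 after the loess correction and 0 to 10 with 1 library left out. The balance of ATG2A to ATG2B (0.04) changed sign under quantile normalization (-0.073) and the loess correction (-0.0043), and ran from -0.22 (without OE replicate 1) to 0.25 with 1 library left out. Over all genes tested, 1399 were called, 834 with no moderation, 923 with the replicate block, 3529 after the loess correction and 300 to 3512 with 1 library left out. The cause of these shifts was not tested.

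With the replicate number as a block, 3 members were called (ATG101, WDR45 and ATG16L2). The series' text speaks of pairs without saying what they share. Deviations of same-numbered libraries from their group means correlated at 0.07, 0.0065 and 0.06 across genes. NC replicates 1 and 3 correlated best with the OE library of the same number. NC replicate 2 was nearly level between OE replicate 3 (0.0090) and OE replicate 2 (0.0065). These small correlations do not decide whether the libraries were paired, and the number was used as a block only among the alternatives.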
